A study of Mus musculus with 8 samples.

Results

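A set of 10 tubulin and stathmin genes were followed through single-cell transcriptomes of SN4741, a mouse line labelled as neural precursor cells. The set was given as a list of 10 symbols, matched in the gene table that accompanies each count matrix: the β-tubulins Tubb3, Tubb2a, Tubb2b, Tubb4b, Tubb5 and Tubb6, the α-tubulins Tuba1a and Tuba1b, and the tubulin-binding stathmins Stmn1 and Stmn2. All 10 of 10 were found among the 31053 genes of the files, and all 10 were among the 15810 genes that passed the filter on low counts. In the mouse genome (GRCm38), the 10 protein-coding genes lie at chr8:123411424-123422015 (Tubb3), chr13:34074274-34078007 (Tubb2a), chr13:34126748-34130466 (Tubb2b), chr2:25222160-25224702 (Tubb4b), chr17:35833921-35838306 (Tubb5), chr18:67390717-67402749 (Tubb6), chr15:98949837-98953703 (Tuba1a), chr15:98931425-98934565 (Tuba1b), chr4:134468320-134473843 (Stmn1) and chr3:8509360-8561606 (Stmn2). Cells were captured in 8 droplet libraries, 4 from cultures at 37 °C with 10% serum and 4 from cultures held at 39 °C with 0.5% serum for 48 hours, so that temperature and serum cannot be told apart. All 8 libraries come from the same line, given as wild type, which carries a temperature-sensitive viral T antigen as its immortalising gene and which the study describes as polyploid and genetically unstable. Nothing in the labels says that the 4 libraries of a temperature were separate cultures, so the p-values measure only the spread between these libraries, which may be technical.

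Microtubules are polymers of α- and β-tubulin dimers, and mammals carry several genes (isotypes) for each subunit. Tubb3 is the classical marker of young neurons, and Tubb2a, Tubb2b and Tuba1a are abundant in the developing brain, whereas Tubb4b, Tubb5, Tubb6 and Tuba1b are used widely outside it. Stathmins bind free tubulin dimers and promote the shrinkage of microtubules: Stmn1 is general and linked to proliferation, while Stmn2 (SCG10) is a growth-cone protein of neurons. In dividing cells the same dimers build the mitotic spindle. For the counts below, Tubb3, Tubb2a, Tubb2b, Tuba1a and Stmn2 are called neuronal and the other 5 members general.

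The end of a tubulin's coding sequence encodes the acidic tail that stands out from the microtubule surface and carries many of its modifications. The last 75 coding bases, up to and including the stop codon, are shown for the β members other than Tubb6. Capitals mark the bases that did not match Tubb5 in a pairwise alignment of the coding sequences.
Tubb5: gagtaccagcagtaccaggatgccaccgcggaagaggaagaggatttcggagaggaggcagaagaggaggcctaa
Tubb4b: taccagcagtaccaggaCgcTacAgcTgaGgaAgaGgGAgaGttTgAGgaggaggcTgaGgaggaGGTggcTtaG
Tubb2a: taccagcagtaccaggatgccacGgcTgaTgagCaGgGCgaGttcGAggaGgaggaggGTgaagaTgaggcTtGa
Tubb2b: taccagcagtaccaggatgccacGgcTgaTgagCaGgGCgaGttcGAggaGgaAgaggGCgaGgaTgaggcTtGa
Tubb3: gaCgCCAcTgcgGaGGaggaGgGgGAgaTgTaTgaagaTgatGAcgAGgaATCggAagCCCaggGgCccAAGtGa
Among those shown, Tubb3 had the most unmatched bases, 33 of 75, against 20 in Tubb4b, 18 in Tubb2b and 16 in Tubb2a. The end of Tubb6 was not compared. Over whole coding sequences, Tubb2a and Tubb2b were 96.5% identical, and the other pairs of β members 80.2% to 86.0%.

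The α members were nearer to each other, with 98.3% identity over 1356 coding bases. This bears on the counts, since 3′ libraries read the ends of transcripts. In the last 500 bases of the transcript, the share of 50-base windows that also occur in another annotated gene was 63.6% for Tuba1b, 56.3% for Tuba1a, 42.4% for Tubb2a, 35.3% for Tubb4b and 2.44% for Stmn1. For Tubb3, Tubb2b, Tubb5, Tubb6 and Stmn2 it was 0%. Reads from the shared stretches may not be placed on a single gene. The sharing genes included Tubb4b-ps1 for Tubb4b, Tubb2a-ps2 and Tubb2b for Tubb2a, and for the α members each other, so the levels of Tuba1a, Tuba1b, Tubb2a and Tubb4b are less certain than those of the others. Stmn1 and Stmn2 were 57.8% identical over their coding sequences.

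Promoters of 6 of the 10 members were at hand (RefSeq, GRCm38.p6, 250 bases before to 50 after the start). Those of Tubb4b, the member that set itself apart by temperature, and of Tubb3, the neuronal marker, are shown, with capitals at CCAAT boxes (CCAAT) and at the cell-cycle homology region (CHR, TTTGAA), short motifs known from promoters of genes active in G2 and mitosis. Both strands were searched.
Tubb4b promoter, chr2:25224653-25224952, minus strand: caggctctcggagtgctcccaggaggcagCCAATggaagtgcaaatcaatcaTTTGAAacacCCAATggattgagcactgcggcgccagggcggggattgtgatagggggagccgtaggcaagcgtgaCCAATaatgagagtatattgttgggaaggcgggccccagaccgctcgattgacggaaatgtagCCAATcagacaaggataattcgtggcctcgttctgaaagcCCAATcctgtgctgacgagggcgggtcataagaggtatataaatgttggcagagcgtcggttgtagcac
Tubb3 promoter, chr8:123411303-123411602, plus strand: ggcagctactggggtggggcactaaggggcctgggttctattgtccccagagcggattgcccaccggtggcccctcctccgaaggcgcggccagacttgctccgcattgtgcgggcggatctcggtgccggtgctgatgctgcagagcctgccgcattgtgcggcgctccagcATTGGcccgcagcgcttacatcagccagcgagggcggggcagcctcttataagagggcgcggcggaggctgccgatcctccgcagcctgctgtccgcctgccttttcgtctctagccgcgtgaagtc
The Tubb4b window held 1 CHR match and 5 CCAAT matches, and that of Tubb3 held 0 and 1. Among 32851 promoter windows of the same length, 17.9% held a CHR match, 37.4% a CCAAT match, and 2.09% a CHR match with at least 2 CCAAT matches. Tubb5 had 2 CCAAT matches, Tuba1a 1, and Tubb2a and Tuba1b 0, and none of these 4 held a CHR match. A match describes these letters and not a bound site.

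The deposited matrices held 228647754 UMIs (unique molecular identifiers, each a captured transcript) in 19125 cells, of which 18351 were kept, 8550 at 37 °C and 9801 at 39 °C. Kept libraries held 985 to 3494 cells with a median of 6676 to 16665 UMIs per cell. Replicate 1 at 39 °C stood apart with the fewest cells and the deepest ones, and results that change without it are given with it. At most 5 cell barcodes were shared by any of the 28 pairs of libraries. No doublet caller was run beyond the upper limit of 6000 genes per cell. The label was checked against markers: Nes (467 CPM at 37 °C and 108 CPM at 39 °C, where CPM are UMI counts scaled to a common library total), Sox2 (55.4 and 76.5 CPM) and Ncam1 (120 and 99.9 CPM) were present, but Hes5, Elavl4, Olig1, Olig2 and Sox10 had 0 UMIs in all 8 libraries, and Sox1, Pax6, Fabp7, Syt1, Snap25 and Nefl had at most 4 at either temperature. The 9 neuron markers summed to 121 to 127 CPM per library at 37 °C and 102 to 111 CPM at 39 °C, nearly all of it Ncam1. The 10 mesenchymal markers summed to 2352 to 2404 CPM at 37 °C and 1140 to 1162 CPM at 39 °C, led by Col1a1 and Col1a2, and their part in the results was not tested. The 8 glial markers reached 3.20 to 3.63 CPM and 4.93 to 5.62 CPM.

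The first question was whether the members differ between the permissive and the non-permissive temperature when all cells of a library are summed. At 39 °C, 9 of the 10 members were lower, all 5 neuronal ones and 4 of the 5 general ones, and none was higher. Tuba1b, the general α-tubulin, fell the most, by 1.45 on the log2 scale (2.73-fold), followed by Stmn1 and Stmn2 (2.25-fold and 2.10-fold). Tubb4b was the exception, with levels that overlapped between temperatures. The temperature contrast moved much of the transcriptome, with 30.5% of 15810 tested genes lower and 31.5% higher at an adjusted p under 0.05, so that the shared direction of 9 members is to be read against that share. In a sum over cells, fewer cells with a transcript and less of it per cell cannot be told apart.

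Each UMI counts a transcript whatever its length, so transcript length does not enter the levels. Loss of reads that fit several genes can, and levels of Tuba1a, Tuba1b, Tubb2a and Tubb4b may be too low beside those of other members. Tubb3 was the least abundant member. It had 14.8, 15.2, 14.1 and 17.5 CPM in replicates 1 to 4 at 37 °C, and 7.60, 9.58, 8.99 and 7.40 CPM at 39 °C. Every library at 39 °C was below every one at 37 °C, with 1725 UMIs in all at 37 °C and 833 at 39 °C. The difference was −0.87 ± 0.09 on the log2 scale (SE, 4 against 4 libraries, adjusted p = 4.73e-08 by edgeR's quasi-likelihood test). Tubb2a, its relative in neurons, had 50.9, 58.4, 51.1 and 59.9 CPM at 37 °C and 37.0, 33.99, 35.1 and 32.0 CPM at 39 °C, with no overlap (−0.68 ± 0.06, adjusted p = 9.70e-09). Tubb2b, which lies beside Tubb2a on chromosome 13, moved least of the 9, with 82.7, 88.8, 78.9 and 90.2 CPM against 78.4, 72.4, 72.6 and 69.4 CPM. Its groups came within 1 CPM of each other (−0.22 ± 0.05, adjusted p = 0.00118), and with each cell thinned to 5000 UMIs the call was lost (−0.12, adjusted p = 0.0903).

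Among the general β members, Tubb5, the main isotype of proliferating cells, had 730, 794, 815 and 860 CPM at 37 °C and 473, 438, 441 and 447 CPM at 39 °C (−0.83 ± 0.06, adjusted p = 1.66e-10). Tubb6, an isotype that destabilises microtubules when abundant, had 151, 166, 167 and 187 CPM against 102, 107, 101 and 109 CPM (−0.68 ± 0.06, adjusted p = 3.18e-09). The groups were far apart in both genes. Tubb4b had 760, 804, 787 and 826 CPM at 37 °C and 827, 849, 792 and 782 CPM at 39 °C. These ranges overlapped, and the difference was +0.03 ± 0.05 (adjusted p = 0.612), with −0.01 to 0.13 over the alternatives tried.

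The α members and stathmins were lower without overlap. Tuba1a, the α-tubulin of young neurons, had 736, 773, 710 and 851 CPM at 37 °C and 444, 504, 515 and 472 CPM at 39 °C (−0.67 ± 0.06, adjusted p = 2.02e-08). Tuba1b had 478, 521, 478 and 565 CPM against 162, 191, 209 and 186 CPM (−1.45 ± 0.07, adjusted p = 1.35e-12). Stmn1 had 492, 541, 536 and 544 CPM against 224, 235, 244 and 238 CPM (−1.17 ± 0.05, adjusted p = 2.56e-13). Stmn2, the neuronal stathmin, was at 119, 99.6, 101 and 128 CPM against 39.9, 59.8, 58.2 and 53.7 CPM (−1.07 ± 0.10, adjusted p = 9.53e-09), with replicate 1 lowest at 39 °C. In all, 9 of 10 members did not overlap between temperatures, beside 56.7% of all tested genes. The median over the members was −0.75, beside 0.02 over all tested genes. At an adjusted p under 0.01 with a log2 change over 1.5 in size, 5.83% of tested genes and 0 members were called.

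**Figure D1:**
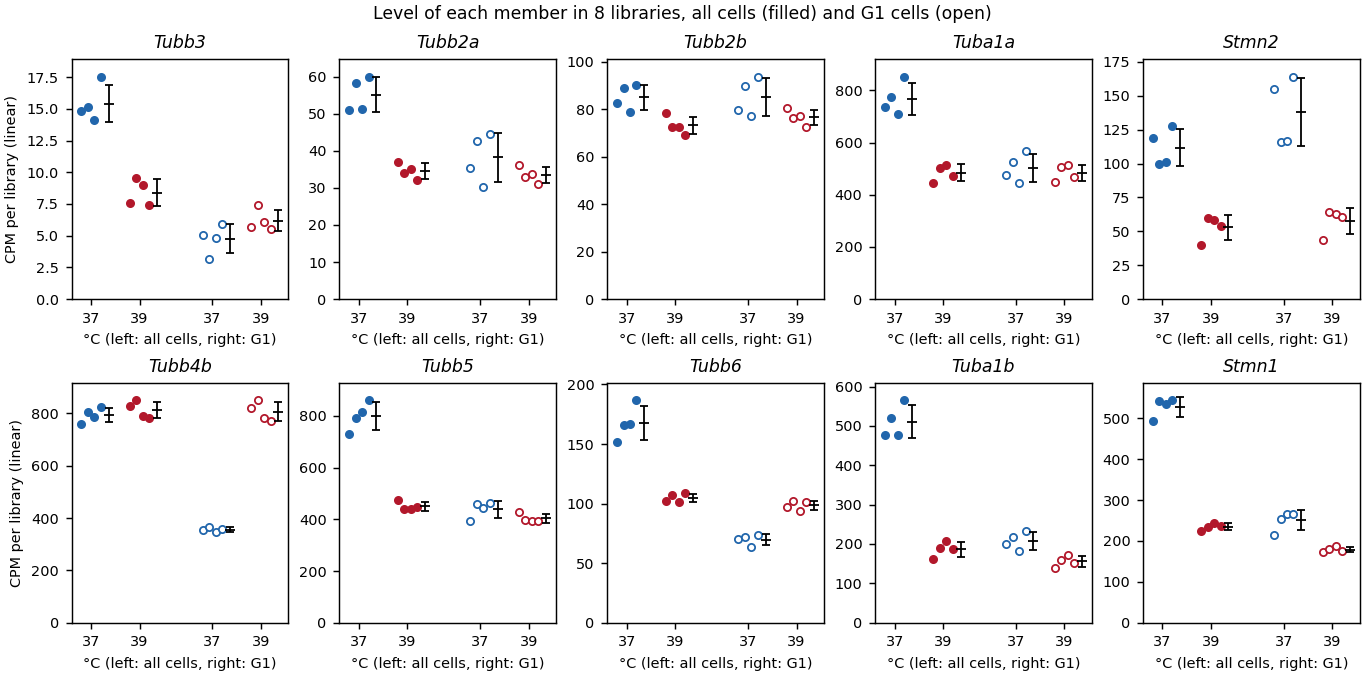
Level of each member per library in CPM (linear axes from 0), at 37 °C (blue) and 39 °C (red), in all cells (filled) and in G1 cells (open); black bars give the mean and SD of 4 libraries. In all cells 9 members were lower at 39 °C, while Tubb4b sat between 760 and 849 CPM at both temperatures and in G1 cells stood at 345 to 364 CPM at 37 °C and 772 to 849 CPM at 39 °C.

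Since several members serve the spindle, the second question was how far the contrast holds among cells outside S, G2 and mitosis. Phases were assigned from S and G2M gene lists from which Tubb4b, the 1 member they held, had been taken out, and G1 is the class of cells with neither score above 0. The G1 class made up 23.9% ± 3.29 (SD, n = 4) of cells at 37 °C and 84.3% ± 1.03 at 39 °C, and the G2M class 34.6% ± 1.03 and 3.86% ± 0.832. In G1 cells the picture changed: 2 general members, Tubb4b and Tubb6, were higher at 39 °C, 4 were lower (Stmn2, Stmn1, Tuba1b and Tubb2b), and 4 did not pass (Tubb3, Tubb2a, Tubb5 and Tuba1a). Of the 14707 genes tested there, 24.7% were higher, 22.5% lower and 2.52% called at the stricter limits (0 members). The median over the members was −0.13, beside 0.04 over all tested genes.

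Tubb4b had 356, 364, 345 and 359 CPM in G1 cells at 37 °C and 821, 849, 784 and 772 CPM at 39 °C. Each library at 39 °C held more than 2 times the level of any at 37 °C, and the change was +1.18 ± 0.05 (adjusted p = 1.10e-13), 2.27-fold. Tubb6 had 70.1, 71.7, 63.5 and 73.8 CPM against 97.5, 102, 94.0 and 101 CPM, again without overlap (+0.50 ± 0.06, adjusted p = 1.39e-07). Stmn2 moved the other way, from 155, 116, 117 and 164 CPM to 43.7, 64.0, 63.1 and 60.7 CPM (−1.25 ± 0.11, adjusted p = 1.73e-09). At 37 °C replicates 1 and 4 were the higher ones, and at 39 °C replicate 1 was again the lowest.

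Stmn1 had 214, 254, 267 and 267 CPM in G1 cells at 37 °C and 173, 180, 187 and 175 CPM at 39 °C (−0.48 ± 0.06, adjusted p = 8.29e-07). Tuba1b had 199, 217, 182 and 234 CPM against 140, 160, 172 and 151 CPM (−0.41 ± 0.07, adjusted p = 3.66e-05). Neither overlapped between temperatures. Tubb3 had 5.09, 3.18, 4.85 and 5.90 CPM at 37 °C and 5.72, 7.41, 6.07 and 5.54 CPM at 39 °C. These overlapped, and the difference of +0.38 ± 0.17 did not pass (adjusted p = 0.0687). Tubb2a (38.2 ± 6.59 against 33.5 ± 2.17 CPM, mean and SD), Tubb5 (439 ± 32.2 against 404 ± 16.8 CPM) and Tuba1a (503 ± 54.3 against 484 ± 30.2 CPM) had differences of −0.18, −0.12 and −0.06, with adjusted p of 0.0864, 0.0969 and 0.534. Tubb2b was at 85.2 ± 7.89 and 76.7 ± 3.22 CPM (−0.15 ± 0.06, adjusted p = 0.0499).

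Some of these calls changed with single libraries, scaling, gene filter, tool or phase assignment. Tubb2b was lost without replicate 2 or 4 at 37 °C, or replicate 2, 3 or 4 at 39 °C (adjusted p = 0.0921 to 0.218), and also with no gene filter (0.0684), with Tubb4b kept in the phase lists (0.0785) and with updated lists (0.18). Tubb3 passed without replicate 4 at 37 °C (+0.48) or replicate 1 or 4 at 39 °C (+0.41 and +0.44), Tubb2a without replicate 3 at 37 °C (−0.28) or replicate 1 at 39 °C (−0.22), and Tubb5 without replicate 1 at either temperature (−0.16 and −0.15). Tubb5 also passed with RLE scaling (adjusted p = 0.0497), upper quartile scaling (0.0404), DESeq2 (0.0404) and phases assigned after thinning (0.0172). Tubb2a did so with upper quartile scaling (adjusted p = 0.0481), no gene filter (0.0453) and phases after thinning (0.0445), and Tubb3 with no gene filter (0.0341). Where phases were scored within each library alone, which put 1291 cells at 39 °C in the G2M class in place of 403, Tubb3 turned to −0.18 (adjusted p = 0.299), Tubb5 passed at −0.34, Tubb2b was lost at −0.06 (adjusted p = 0.464), and Tuba1b and Stmn1 came to −0.82 and −0.99. Tubb4b at +1.09 and Tubb6 at +0.34 remained higher there (adjusted p = 4.89e-13 and 2.62e-05), and Stmn2 remained lower.

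**Figure D2:**
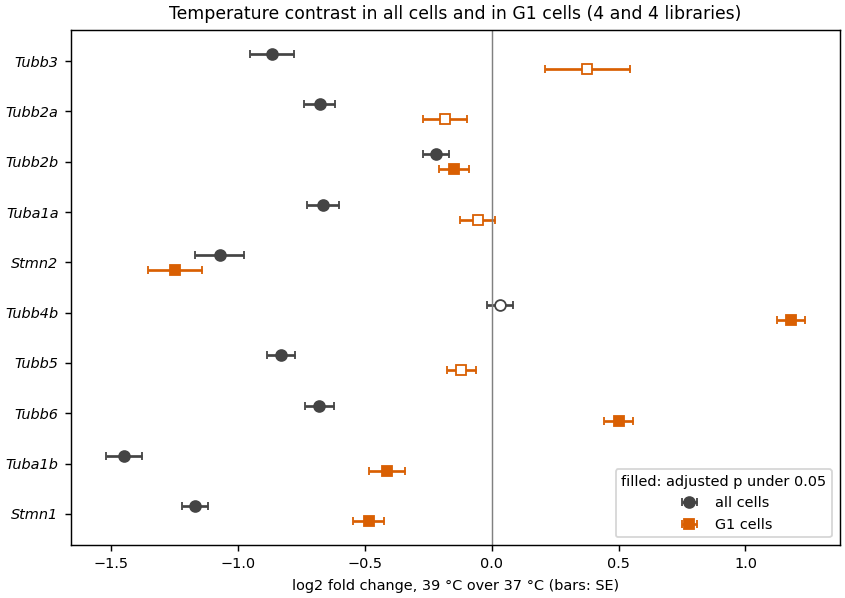
Log2 fold change of each member, 39 °C over 37 °C, in all cells (circles) and G1 cells (squares), with standard errors; filled symbols passed an adjusted p under 0.05. Tubb4b moved from +0.03 in all cells to +1.18 in G1 cells, and Stmn2 was near −1.07 and −1.25 in both.

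The make-up of the β-tubulin pool followed from these levels. Together the 8 tubulin members took 0.316% ± 0.0181 of UMIs at 37 °C and 0.218% ± 0.00347 at 39 °C, and the 2 stathmins 0.0633% ± 0.00243 and 0.0291% ± 0.00138. Within G1 cells the tubulin share was instead higher at 39 °C, without overlap (0.171% ± 0.0128 at 37 °C and 0.205% ± 0.00498 at 39 °C). It was 0.218% and 0.221% in S cells and 0.504% and 0.493% in G2M cells, with overlap. The stathmin share was lower at 39 °C in G1 cells too (0.0391% and 0.0235%). Among UMIs of the 6 β members, Tubb4b held 41.5% ± 0.847 (40.5% to 42.5%) at 37 °C and 54.8% ± 1.00 (54.1% to 56.2%) at 39 °C, while Tubb5 held 41.7% ± 0.833 (40.8% to 42.6%) and 30.3% ± 0.930 (29.0% to 31.0%). For both, the ranges of the temperatures were separate. The neuronal isotypes Tubb3, Tubb2a and Tubb2b together held 8.12% ± 0.397 of the pool at 37 °C and 7.83% ± 0.272 at 39 °C, which overlapped. Tubb3 alone held 0.803% ± 0.0521 and 0.566% ± 0.0709. Shares of this pool are limited by Tubb4b and Tubb2a, with 35.3% and 42.4% of their end windows found in other genes.

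In G1 cells the neuronal share was 12.9% ± 0.919 (11.7% to 13.9%) at 37 °C and 8.17% ± 0.248 (7.93% to 8.42%) at 39 °C, beside a Tubb4b share of 35.9% ± 1.44 and 56.6% ± 0.939. Since shares sum to a fixed total, a larger share of Tubb4b goes with smaller ones of the others. Tuba1a took 60.1% ± 0.410 of the UMIs of the 2 α members at 37 °C and 72.2% ± 0.924 at 39 °C, and in G1 cells 70.8% ± 0.177 and 75.7% ± 0.564. The ratio of β to α UMIs over the members was 1.504 ± 0.0742 at 37 °C and 2.22 ± 0.214 at 39 °C. It depends on the α members, whose reads are shared most with other genes.

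**Figure D3:**
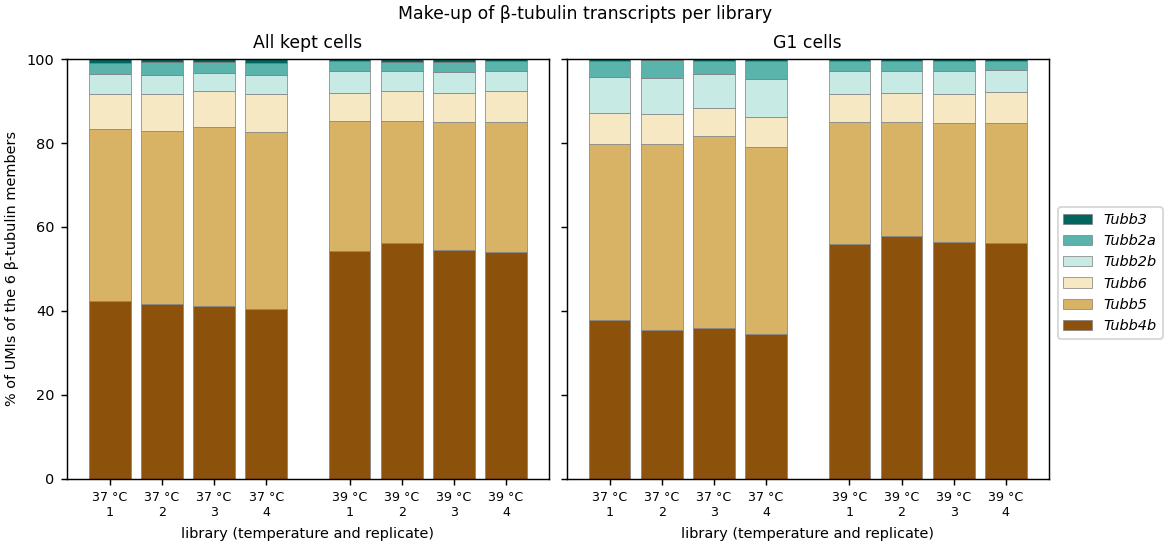
Percent of the UMIs of the 6 β-tubulin members taken by each, per library, in all cells (left) and G1 cells (right). Tubb4b (dark brown) held 40.5% to 42.5% of the pool at 37 °C and 54.1% to 56.2% at 39 °C in all cells.

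The third question was how the members vary along the cycle within each library. G2M cells were compared with G1 cells of the same library, with the library as a block. At 37 °C, 9 of 10 members were higher in G2M cells and Stmn2 was lower, where 21.9% of 14357 tested genes were higher and 19.9% lower. At 39 °C, 8 were higher, Tubb2b did not pass (+0.21, adjusted p = 0.0667) and Stmn2 was lower, where 11.7% and 14.2% of genes were called. The class at 39 °C is small, with 27 to 163 cells per library, and Tubb2b passed there without replicate 3 at 39 °C (+0.37) or replicate 1 at 37 °C (+0.23), and also with RLE scaling (adjusted p = 0.0249), library totals (0.0128), filterByExpr (0.0406), updated phase lists (0.0139) and phases after thinning (0.0253). With phases scored within each library, 7 were higher at 39 °C: Tubb2a no longer passed (+0.19, adjusted p = 0.0938), and Tubb4b, Tubb5, Tubb6, Tuba1a, Tuba1b, Tubb3 and Stmn1 came to +0.53, +0.77, +0.65, +0.17, +1.03, +1.27 and +1.39.

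Tubb3, the neuronal marker, had the largest contrast of the 10 with phases scored over all cells, but not with phases scored within each library, where Tubb4b (+2.07) and Tubb6 (+1.92) were above it (+1.84) at 37 °C and Stmn1 (+1.39) above it (+1.27) at 39 °C. It was 2.29, 2.90, 2.09 and 2.20 higher on the log2 scale in G2M than in G1 cells in replicates 1 to 4 at 37 °C, and 2.38, 2.24, 2.59 and 1.86 higher at 39 °C. The fitted values were +2.33 ± 0.13 (adjusted p = 1.32e-46) and +2.29 ± 0.18 (adjusted p = 7.16e-28), and their difference did not pass (−0.04 ± 0.21, adjusted p = 0.950). Its mean level went from 4.85 CPM in G1 to 13.3 CPM in S and 24.1 CPM in G2M cells at 37 °C, and from 6.15 CPM to 17.96 CPM and 30.4 CPM at 39 °C. S and G2M levels were not tested between temperatures, and in G2M cells replicate 4 at 39 °C (20.2 CPM) lay below all 4 libraries at 37 °C (20.6 to 27.4 CPM).

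The other neuronal members moved less along the cycle. Tuba1a was 1.26, 1.17, 1.30 and 1.14 higher in G2M cells at 37 °C and 0.98, 0.74, 0.70 and 0.76 higher at 39 °C, so that every library at 39 °C was below every one at 37 °C. Tubb2a was +1.10 ± 0.06 and +0.94 ± 0.11, and Tubb2b +0.48 ± 0.05 and +0.21 ± 0.09. Tubb2b was lowest in S cells, at 56.6 ± 3.13 CPM against 86.9 ± 8.09 CPM in G1 and 119 ± 6.45 CPM in G2M cells at 37 °C. Stmn2 was the only member lower in G2M cells at both temperatures, by −0.33, −0.30, −0.23 and −0.33 at 37 °C and −1.20, −0.95, −0.45 and −0.96 at 39 °C. All 8 libraries had the same sign (−0.30 ± 0.04, adjusted p = 6.49e-10, and −0.78 ± 0.12, adjusted p = 5.78e-09).

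Among the general members, Tubb4b was 2.02, 2.09, 2.14 and 2.06 higher in G2M cells at 37 °C and 1.49, 0.94, 0.97 and 1.00 higher at 39 °C. The contrast at 39 °C was smaller in every library (difference −0.99 ± 0.05, adjusted p = 8.74e-48), beside the G1 level that was 2.27-fold higher. Its G2M level itself was 1505 ± 46.4 CPM at 37 °C and 1760 ± 357 CPM at 39 °C, where replicate 1, with 27 cells, had 2293 CPM and the others 1547 to 1636 CPM. Tubb6 behaved likewise, with 1.81, 1.96, 2.13 and 2.01 at 37 °C and 1.51, 1.01, 1.32 and 1.04 at 39 °C (difference −0.78 ± 0.08, adjusted p = 5.58e-18). Stmn1 went the other way, with 1.65, 1.52, 1.43 and 1.40 at 37 °C and 2.00, 1.88, 1.95 and 1.92 at 39 °C (difference +0.43 ± 0.06, adjusted p = 6.52e-11). Tubb5 (+1.47 ± 0.03 and +1.44 ± 0.04) and Tuba1b (+1.90 ± 0.04 and +1.87 ± 0.05) had differences of −0.03 ± 0.05 and −0.04 ± 0.06 between temperatures.

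Of the 10 members, 4 had a smaller or more negative contrast at 39 °C (Tubb4b, Tubb6, Tuba1a and Stmn2) and 1 a larger (Stmn1), beside 5.42% and 2.51% of genes. Tuba1a differed by −0.44 ± 0.05 (adjusted p = 5.99e-13) and Stmn2 by −0.48 ± 0.13 (adjusted p = 0.00753). Stmn2 was lost without replicate 2 or 4 at 39 °C (adjusted p = 0.0666 and 0.0933), with library totals (0.0753), DESeq2 (0.0809) or phases after thinning (0.0672), and without the library block (0.423). Tubb2b (−0.27, adjusted p = 0.0719) passed without replicate 4 at 37 °C (−0.31) or replicate 1 at 39 °C (−0.37), and with Tubb4b kept in the phase lists (−0.29). With phases scored within each library, 9 members had a smaller or more negative contrast at 39 °C. The 5 members without a call at the main setting had scaling-dependent signs in 3 cases (Tubb3, Tubb5 and Tuba1b), so no direction is read for them.

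**Figure D4:**
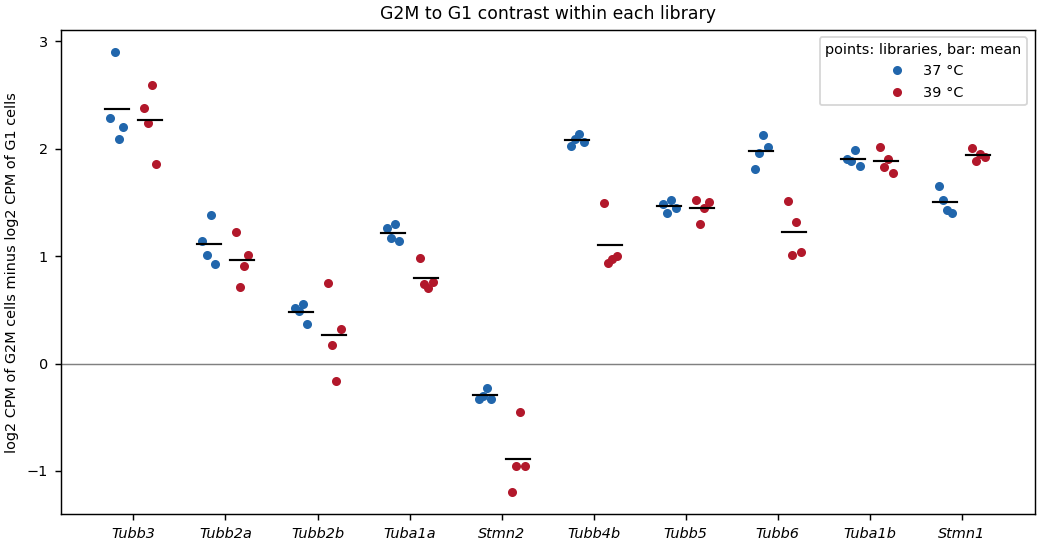
Difference between G2M and G1 cells of the same library in log2 CPM for each member, at 37 °C (blue) and 39 °C (red); points are libraries and black bars their means. Tubb4b points lay between 2.02 and 2.14 at 37 °C and between 0.94 and 1.49 at 39 °C, and Stmn2 was below 0 in all 8 libraries.

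Single cells were compared after thinning each cell to 5000 UMIs, which left out 668 shallower cells at 37 °C and 1668 at 39 °C. Tubb3 had a UMI in 6.005% ± 0.657 of cells at 37 °C and 3.24% ± 1.01 at 39 °C (12.5% to 14.8% and 4.29% to 8.43% before thinning), and Stmn2 in 24.3% ± 3.30 and 14.9% ± 2.05 (33.9% to 36.2% and 17.5% to 22.8%). Tubb4b had a UMI in 82.9% ± 1.02 of cells at 37 °C and 92.8% ± 1.23 at 39 °C, and in G1 cells alone in 74.7% ± 0.535 and 93.0% ± 0.981. Unthinned, its share overlapped between temperatures, at 88.2% to 94.4% and 89.7% to 97.3%. The share with Tuba1b was 81.1% and 54.4% (86.8% to 93.6% and 61.6% to 82.7% before thinning), and that with Stmn1 84.6% and 59.5% (88.9% to 95.5% and 65.6% to 84.9%). Free RNA in droplets can give UMIs in cells that do not express a gene, and a single line has no cell type known to lack these genes, so no background share could be measured.

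Stmn2 was spread unevenly over cells. The variance of its thinned count was 2.23 to 2.32 times the mean at 37 °C and 1.88 to 2.09 times at 39 °C, and fewer cells had a UMI than the same mean would give if every cell had the same rate (21.0% to 28.4% against 31.8% to 41.7% at 37 °C). This held within G1 cells (2.10 to 2.76 times at 37 °C). For Tubb3 it was 1.14 to 1.42 times the mean at 37 °C and 1.19 to 1.46 times at 39 °C, at a mean of 0.0702 and 0.0398 UMIs per cell against 0.455 and 0.240 for Stmn2. This ratio nears 1 as the mean falls, so the genes are not compared by it. Tubb4b had 4.602 to 5.32 times its mean over all cells at 37 °C and 1.75 to 1.97 times within G1 cells.

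In thinned cells, those with a Stmn2 UMI (1956 of 7882 at 37 °C and 1253 of 8133 at 39 °C) had a lower mean of Tubb5, a general isotype, than those without in all 8 libraries, by a log2 ratio of −0.47 to −0.39 at 37 °C and −0.56 to −0.32 at 39 °C. Within G1 cells this ratio was −0.81 to −0.61 and −0.43 to −0.21. For Tuba1a, the neuronal α isotype, it was 0.08 to 0.31 and 0.13 to 0.30 over all thinned cells. Within G1 cells it was −0.49 to 0.18 and 0.15 to 0.31, so the libraries at 37 °C differed in sign there. The general Tuba1b had ratios of 0 to 0.16 and 0.11 to 0.21 in G1 cells. For the neuronal Tubb2b they were −0.80 to 0.24 and −0.33 to 0.22. In G1 cells at 39 °C, the neuronal Tubb2a was at 0.09 to 0.84 and Tubb3 at −0.10 to 1.49. The general Tubb4b was at −0.17 to −0.06 there, Tubb6 at −0.35 to −0.11 and Stmn1 at −0.46 to −0.23. The ratios at 39 °C thus went largely with the neuronal and general names, but not for Tuba1b and Tubb2b. At 37 °C the libraries also differed in sign for Tubb2a (−0.53 to 0.77) and Tubb3 (−0.68 to 0.13).

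The share of G2M cells was higher among Tubb3-positive cells. At 37 °C, 54.3%, 42.1%, 62.2% and 60.0% of thinned cells with a Tubb3 UMI were in G2M, against 32.5%, 33.6%, 33.6% and 35.3% of cells without. At 39 °C these were 11.8%, 10.0%, 19.2% and 12.1% against 2.36%, 3.23%, 3.78% and 4.37%, from 17 to 94 positive cells per library. The direction was the same in all 8 libraries. Over thinned cells of a library at 37 °C, the correlation of Tubb3 with Stmn2 ran from −0.04 to 0.03 over the 4 libraries (1599 to 2398 cells each), and at 39 °C from −0.005 to 0.11 (949 to 2485 cells), with −0.01 to 0.14 in G1 cells there. Tubb4b and Tubb5 had 0.42 to 0.45 at 37 °C and 0.12 to 0.14 at 39 °C, and within G1 cells alone 0.02 to 0.11 and −0.02 to 0.04, and Tubb5 and Stmn2 −0.13 to −0.12 at 37 °C. Cells share their library and their depth was equalised, and these values are descriptions. Tubb3 had no UMI in most thinned cells, which holds its correlations near 0. They therefore do not show whether Tubb3 and Stmn2 occur in the same cells.

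**Figure D5:**
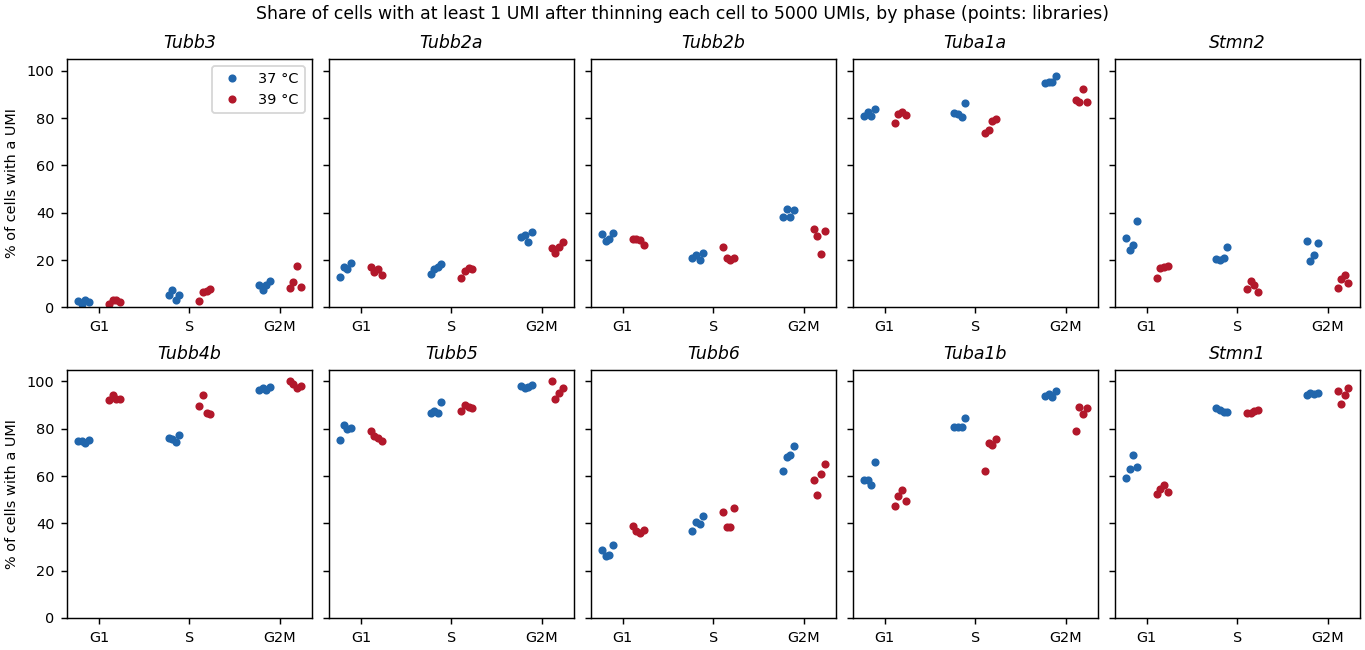
Percent of cells with at least 1 UMI of each member after thinning every cell to 5000 UMIs, by phase class, at 37 °C (blue) and 39 °C (red), with 1 point per library. Tubb4b in G1 cells was at 74.1% to 75.4% at 37 °C and 92.4% to 94.5% at 39 °C, and Stmn2 was lower at 39 °C in each class.

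The genes whose log2 CPM followed a member most closely over the 24 sums of 8 libraries by 3 classes were found among 8407 genes with at least 10 CPM. For Tubb3 these were Cep128 (Pearson r = 0.95), Lin9 (0.95), a subunit of a cell-cycle transcription complex, and Syne2 (0.94), a nuclear envelope protein. For Tubb6 they were Incenp (0.98), Spag5 (0.98) and Kif20b (0.97), which act in mitosis, and for Tubb4b Ubald2 (0.98), Hist1h1d (0.97), a linker histone, and Tuba1c (0.97), an α-tubulin. Stmn2 followed Exosc4 (0.96), Aurkaip1 (0.95) and Nupr1 (0.95). The 24 sums are not independent, since 3 come from each library.

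Other genes of the microtubule system were counted from lists. Of 9 other tubulins tested among 12, 6 were lower at 39 °C in all cells and 2 higher (Tuba8 and Tubb4a, +0.66 and +0.89), led by Tubg1, the γ-tubulin that nucleates microtubules (80.5 ± 5.66 to 31.6 ± 1.27 CPM, −1.35), with Tuba4a (−0.63) and Tube1 (−0.60). In G1 cells 3 of 7 were higher, Tuba1c (+0.90), Tuba8 (+0.81) and Tube1 (+0.50), and Tubg1 was lower (−0.36). Of 21 tubulin-folding genes, 12 were lower and 4 higher. The chaperonin subunits Cct3 (236 ± 18.2 to 135 ± 5.68 CPM, −0.80) and Tcp1 (−0.75) fell, and in G1 cells they were at −0.54 and −0.50, while Tbcel rose (+0.70). Of the other subunits of this chaperonin found, Cct2, Cct5, Cct7 and Cct8 fell (−0.36, −0.44, −0.42 and −0.45), but Cct4 rose, from 411 ± 8.16 to 602 ± 27.2 CPM (+0.55, and +0.48 in G1 cells). Of 17 enzymes that modify tubulin, 8 were lower and 5 higher, with Agtpbp1 (+0.70) and Ttll1 (+0.62) up and Ttll12 (−0.61) down.

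Of 8 neuronal microtubule-associated proteins tested among 9, 4 were lower and 1 higher (Tppp3, +1.10) in all cells, and in G1 cells 5 of 7 were lower and 2 higher, where 22.5% and 24.7% of all tested genes were. Dcx had 0 UMIs. Map1b (150 ± 11.3 to 76.1 ± 5.68 CPM, −0.98), Map2 (51.4 ± 2.33 to 29.7 ± 1.46 CPM, −0.79) and Map1a (−0.53) led, and were at −0.82, −1.01 and −0.82 in G1 cells. Of 10 general ones, 5 were higher and 2 lower, with Mapre3 up (+0.77) and Ckap5 (−0.80) and Map7d1 (−0.49) down. Of 7 mitotic ones, 6 were lower and 1 higher, with Nusap1 (102 ± 5.01 to 9.58 ± 1.68 CPM, −3.40), Hmmr (−3.23) and Prc1 (−2.83) in front and Numa1 higher (+0.15). Of 5 severing genes tested among 6, 3 were lower and 1 higher, led by Fignl1 (−1.49). Of the other 2 stathmins, Stmn4 was higher on 6 UMIs at 37 °C and 18 at 39 °C, and Stmn3 had 4 and 4. Tuba1c, Tuba8, Tubb4a, Tubg2, Cct2, Cct4, Cct5, Cct7, Cct8, Tppp3, Numa1, Stmn3 and Stmn4 were named after their values were seen. The counts in all cells stand beside 30.5% lower and 31.5% higher over all tested genes.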

How the data were processed

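The authors aligned 3′ droplet reads to the mouse genome (mm10) with Cell Ranger 3.0.1 and deposited UMI counts per gene and cell, as whole numbers with no normalization. Reads that fit several genes are not counted, which can lower members with near-identical copies. Cells with over 15% mitochondrial UMIs, under 200 or over 6000 genes were left out. Phases came from Seurat 5.3.0 (42 S genes and 51 G2M genes found, Tubb4b taken out), scored over all cells together.

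Counts were summed per library, or per library and phase, because a library, not a cell, is the replicate. The tests took genes averaging 1 count or more per sum, with edgeR 4.0.16 (R 4.3.3; TMM, glmQLFit, glmQLFTest), and p was adjusted by Benjamini-Hochberg over all tested genes, with a limit of 0.05. SE is the log2 fold change divided by the root of F. CPM use TMM-scaled totals, except the summed marker levels, which use library totals without TMM. The phase fit borrowed much across genes (242.8 prior against 6 residual degrees of freedom), so its p-values lean on other genes. On simulated counts in which 200 genes were given a log2 change of 1, the procedure recovered 200 in all cells and in G1 cells, 200 and 197 in the phase contrasts at 37 °C and 39 °C, and 188 in their difference. Unchanged genes that passed numbered 8, 12, 4, 13 and 13 in the same order. The changed genes had at least 10 CPM on average, and all genes were given a common dispersion. Smaller changes were not simulated, nor were changed genes as low as Tubb3 in G1 cells.

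All members are named. List genes are up to 3 per list, those with the largest change among called genes with at least 5 CPM. The members and lists were chosen with earlier results of these data known, so they are no independent support. Replicate numbers were taken only as names of libraries. Alternatives were other scaling factors, filters on genes and cells, DESeq2 1.42.0, phase assignments, the replicate number as a block, and each library left out. Motifs and windows were searched with Python 3.11.15. The T antigen was not analysed here. Cct6a was not matched to the files and was left out of the folding list. Intervals for shares are not given, as the spread over libraries is.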

Additional observations from a re-analysis of the deposited data

Results flagged for a closer look

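The G2M to G1 contrast of 5 members differed between temperatures by the interaction test: Tubb4b (−0.99), Tubb6 (−0.78), Tuba1a (−0.44), Stmn2 (−0.48) and Stmn1 (0.43), each as the log2 contrast at 39 °C minus that at 37 °C.

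A library lay far from the other 3 of its group in 6 of 80 groups of 4, where chance gives about 1 in 20. The number is near that share, and the groups are not independent, since those of all cells and of classes share cells. In the class sums at 39 °C, replicate 1 was the outlying library for Tubb4b in G2M cells (2293 CPM, nearest 1636), Tubb5 in G1 cells (426 CPM, nearest 396), Stmn2 in G1 cells (43.3 CPM, nearest 60.5) and Tubb2b in S cells (59.6 CPM, nearest 44.8). This is the library with the fewest and deepest cells. At 37 °C the outlying ones were replicate 1 for Stmn1 in all cells (492 CPM, nearest 536) and replicate 4 for Stmn2 in S cells (110 CPM, nearest 97.9).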

How the results depend on the processing

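Of 950 values of single members under an alternative, 874 kept their direction and their side of the threshold, 18 lost the call, 31 gained it and 27 changed sign. Counts of members leaving out 1 library ran from 3 to 6 lower and 2 to 3 higher in G1 cells, from 8 to 9 higher in G2M cells at 39 °C, and from 3 to 5 lower for the difference of contrasts. With phases scored per library, that difference was lower for 9 members in place of 4. The sign changes among uncalled values were Tubb4b in all cells (−0.001 with no cell filter, −0.011 to 0.045 leaving out 1 library), Tuba1a in G1 cells (−0.110 to 0.008 leaving out 1 library), Tubb3 in G1 cells (−0.175) and Tubb2b in G2M cells at 39 °C (−0.050), both with phases scored per library. For the difference of contrasts, Tubb3, Tubb5 and Tuba1b came to 0.031, 0.045 and 0.034 with RLE, the same values with upper quartile scaling, 0.071, 0.089 and 0.076 with totals only, 0.009, 0.022 and 0.012 with filterByExpr, 0.011, 0.046 and 0.036 with DESeq2, and 0.062, 0.062 and 0.131 with phases after thinning. Tuba1b was 0.022 with updated lists. Leaving out 1 library gave −0.200 to 0.096 for Tubb3 and −0.051 to 0.022 for Tubb5 there. The cause was not tested. Totals in place of TMM shifted the median of all genes by 0.11 in that contrast (others by at most 0.10), and the share of called genes that were higher went from 31.7% to 56.9% (RLE), 57.8% (upper quartile), 71.4% (totals), 59.9% (DESeq2) and 48.5% (filterByExpr), with 361 higher and 778 lower calls against 613 and 246 with totals. At 37 °C that share went from 52.4% to 36.5% with upper quartile scaling, and at 39 °C from 45.1% to 57.8% with totals.

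With the replicate number as a replicate block, 9 members were lower in all cells and 3 in G1 cells, where Tubb2b was lost (−0.147, adjusted p = 0.0635), and 2 were higher in G1 cells. Deviations of same-numbered libraries from their group means correlated at −0.12, −0.12, −0.09 and 0.28, and those of differently numbered ones at −0.31 to 0.30. Such few values cannot tell whether the numbers pair the libraries. At 39 °C, 27 G2M cells in replicate 1 limit every contrast of that class. Tubb3 rests there on 833 UMIs over all cells of 4 libraries, and on fewer in any class.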
